A study of Rattus norvegicus with 12 samples.

Results

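The CYP3A cytochromes, their electron donor and the receptors that control them were followed in rat liver 6 h after a glucocorticoid injection. They are 7 genes, listed by name as members of this enzyme system and its control: the cytochromes Cyp3a2, Cyp3a18, Cyp3a9 and Cyp3a23, the NADPH-cytochrome P450 oxidoreductase Por, the pregnane X receptor Nr1i2 (PXR) and the constitutive androstane receptor Nr1i3 (CAR). They were matched to the 41012 probes of the array by gene name and transcript accession, which gave 8 probes, 1 for each gene and 2 for Nr1i3. All 7 genes had probes among the 28173 that passed the filter on dim probes, which cover 11526 genes with a symbol, and every member spot stood well above background on all 12 arrays, with none saturated or flagged.

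The groups were females given dexamethasone, females given vehicle, males given dexamethasone and males given vehicle, with 3 arrays each. Dexamethasone, a synthetic glucocorticoid, was injected intraperitoneally at 1 mg/kg. The vehicle was phosphate-buffered saline, and liver was taken at 6 h. All rats were adrenalectomized Sprague-Dawley animals aged 8 to 10 weeks, so the vehicle groups also lacked adrenal glucocorticoids, and the females were taken in the first day of diestrus. Each array carried pooled liver RNA of 3 animals (9 animals per group), and p-values rest on the spread among such pools.

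CYP3A enzymes are membrane-bound monooxygenases of the endoplasmic reticulum that hydroxylate steroids, bile acids and many drugs, and in rat liver several of them are sex-biased. They need electrons that POR passes on from NADPH, and the same reductase serves all microsomal P450 enzymes. PXR and CAR are nuclear receptors that pair with RXR and switch on Cyp3a and Cyp2b genes in response to drugs and steroids, and in rat liver dexamethasone is a classical inducer of CYP3A23.

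The Cyp3a2 and Cyp3a23 genes share a stretch near their starts that PXR is known to bind, a direct repeat of a receptor half-site with 3 bases between the copies (DR3). The 250 bases before each RefSeq start (build GRCr8, minus strand) are shown with the match in capitals, for Cyp3a2 from chr12:14343858-14344107 and for Cyp3a23, listed in the reference as Cyp3a23-3a1, from chr12:14398804-14399053. The start in the promoter table lies inside the gene record for Cyp3a2, so that 29 bases of its window belong to that record, against 0 for Cyp3a23.
Cyp3a2: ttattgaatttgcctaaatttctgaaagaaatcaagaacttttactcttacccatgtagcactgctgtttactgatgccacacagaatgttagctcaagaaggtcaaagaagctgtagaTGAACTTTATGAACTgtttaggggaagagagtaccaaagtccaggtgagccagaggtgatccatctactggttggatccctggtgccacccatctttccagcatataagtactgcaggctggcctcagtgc
Cyp3a23: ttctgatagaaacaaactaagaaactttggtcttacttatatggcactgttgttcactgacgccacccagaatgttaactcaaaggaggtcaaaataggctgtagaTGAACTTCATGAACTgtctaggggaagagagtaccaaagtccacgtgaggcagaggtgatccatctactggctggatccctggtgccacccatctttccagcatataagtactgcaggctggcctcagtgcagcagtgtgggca
The letters searched were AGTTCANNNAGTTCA on both strands. Counted from the start, the match runs from -131 to -117 in Cyp3a2 and from -144 to -130 in Cyp3a23, on the reverse strand in both. These were the only 2 of 33469 promoter windows to hold it (0.00598%). As the letters are those of a stretch that PXR is already known to bind, this rarity is a description and no test. With any base allowed at the third place of each half-site (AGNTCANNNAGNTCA, which takes in the first motif), 20 windows (0.0598%) matched and Cyp3a2 gained a second match, from -159 to -145. No window of the 7 members held the same half-sites 4 bases apart (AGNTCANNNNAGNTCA, 0.0538% of all windows), everted with 6 bases between them (TGANCTNNNNNNAGNTCA, 0.0329%) or a palindrome of the glucocorticoid receptor (GNACANNNTGTNC, 0.373%). Aligned over their length, the Cyp3a2 and Cyp3a23 windows were identical at 211 of 265 columns (79.6%), against 50.9% to 59.1% for the other pairs of CYP3A members.

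The probes behind the reductase and CAR values are shown because the Por result and the agreement of the Nr1i3 probes rest on them. They are 60 bases long, and the capitals mark the 31 bases that the 2 Nr1i3 probes have in common, so these probes are not independent readings.
Por, probe A_44_P402375: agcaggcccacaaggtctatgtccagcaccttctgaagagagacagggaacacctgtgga
Nr1i3, probe A_43_P12344: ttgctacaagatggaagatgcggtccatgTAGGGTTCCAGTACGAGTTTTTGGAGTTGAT
Nr1i3, probe A_44_P316002: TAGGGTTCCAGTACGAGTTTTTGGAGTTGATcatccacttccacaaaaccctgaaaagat
Among the 4 CYP3A members the probes shared at most 7 bases in a row and 36.5% to 49.2% of aligned columns. The probes were compared with each other and not with the transcripts of the other genes. Whether a probe also reads another CYP3A gene was therefore not tested. The reference gives Cyp3a23 and Cyp3a1 as 1 gene, so the Cyp3a23 probe may read both.

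Across the arrays, between 53.0% and 69.7% of spots were well above background. The 4 arrays of slide 5, which held replicate 3 of every group, had 53.0% to 61.8% and the other 8 had 62.7% to 69.7%. The glucocorticoid-induced genes Fkbp5, Tsc22d3, Per1 and Tat were higher in both sexes, with log2 differences of 4.54 ± 0.20 in females and 4.17 ± 0.18 in males for Fkbp5 (limma, adjusted p = 3.75e-06 and 2.71e-06, with 1 array of females after dexamethasone missing). Summed hepatocyte markers (8 of 8 measured) ranged from 6358 to 6874 after dexamethasone and 4799 to 6466 after vehicle in females, and from 4886 to 6508 after dexamethasone and 3363 to 6330 after vehicle in males, in multiples of the 75th percentile of the array. All 5 measured lymphocyte markers and 3 of 4 neutrophil markers fell in both sexes. The lymphocyte sum was 0.678 to 0.806 after dexamethasone and 2.53 to 4.29 after vehicle in females, and 0.741 to 0.886 after dexamethasone and 2.68 to 3.11 after vehicle in males. In whole liver, fewer cells of a type and less RNA per cell cannot be told apart.

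After dexamethasone, the reductase and PXR rose in both sexes, CAR fell in males, and no CYP3A member passed the test. Por and Nr1i2 were the 2 members called higher in females, where 11.9% of all probes were called higher and 12% lower, and 0 of 7 members were called lower. In males Por and Nr1i2 were again the 2 members called higher and Nr1i3 the 1 called lower, against 9.23% of probes called higher and 10.5% called lower. The median log2 difference of the 7 members, each by its brightest probe, was -0.05 in females and -0.40 in males, against -0.05 and 0.01 for all probes tested. The effect of dexamethasone differed between the sexes for 0 of 7 members (limma, adjusted p under 0.05) and for 0.0248% of probes, 7 in number, with 2769 probes at an unadjusted p under 0.05. That count of 7 ranged from 0 to 31 in other settings, and was 0 without any 1 of the male arrays.

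**Figure D1:**
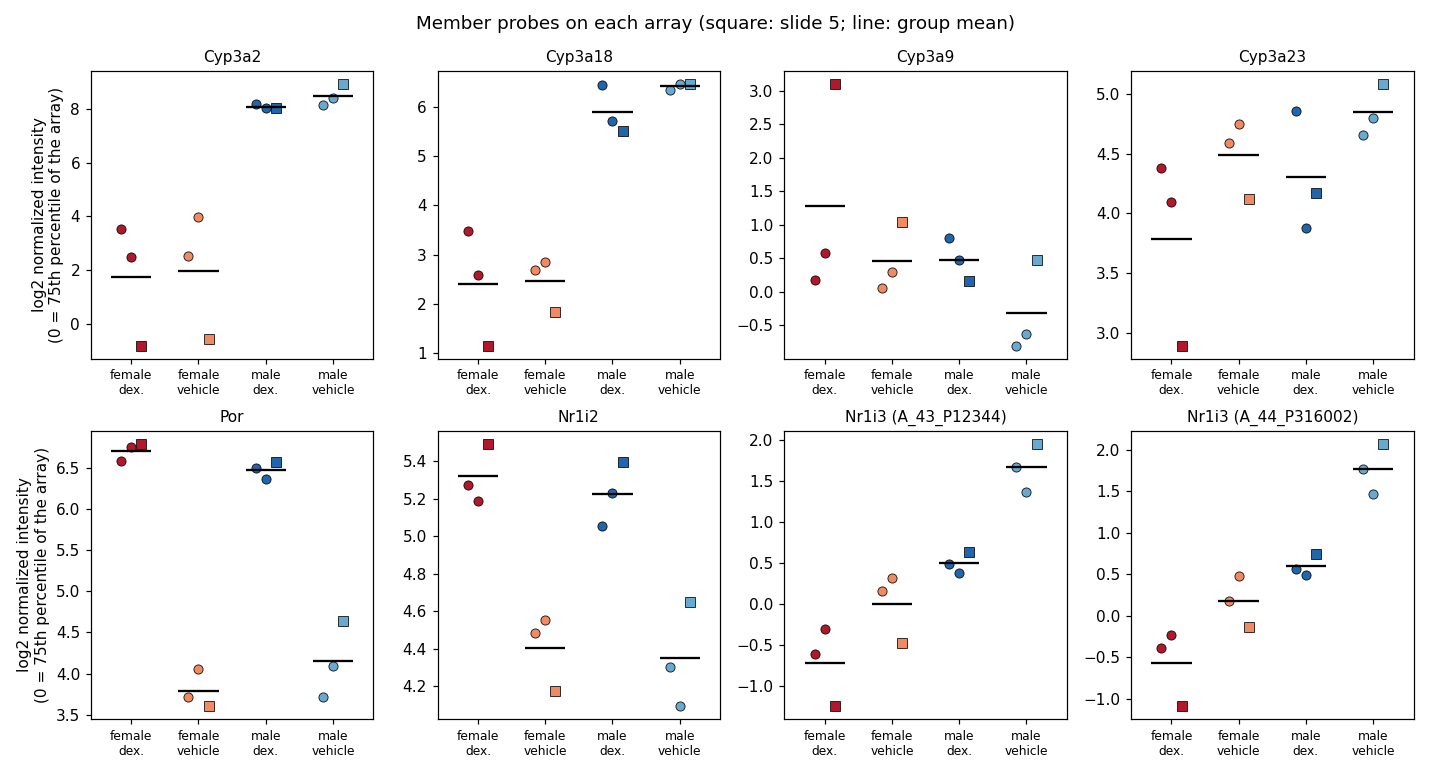
Log2 normalized intensity of the 8 member probes on each of the 12 arrays, where 0 is the 75th percentile of the array, with points for arrays, squares for slide 5 and lines for group means. Por and Nr1i2 lie higher after dexamethasone in both sexes without overlap, and Cyp3a2, Cyp3a18 and Nr1i3 lie lower in females.

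Por, the main electron donor of microsomal P450 enzymes, changed more than any other member. Its log2 normalized intensities were 6.59, 6.76 and 6.79 in females after dexamethasone, against 3.72, 4.05 and 3.61 in females after vehicle. In males they were 6.50, 6.37 and 6.58 after dexamethasone, against 3.71, 4.10 and 4.64 after vehicle. Every dexamethasone array lay above every vehicle array in both sexes. The rise was 7.56-fold in females (log2 2.92 ± 0.23, SE, n = 3 arrays per group, limma adjusted p = 2.54e-05) and 5.03-fold in males (2.33 ± 0.23, adjusted p = 8.87e-05). Only 1.05% of probes in females and 2.37% in males had a larger absolute difference. The effect in females minus that in males was 0.59 ± 0.32 (95% interval -0.12 to 1.30, adjusted p = 0.563), so a difference between the sexes was not called. With slide as a block, where the level of females after dexamethasone depends on 1 array, the rises were 2.996 in females and 2.08 in males. Within slide 5 they were 3.18 and 1.94, and within slide 1, which held males only, 2.40.

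The female and male reductase levels were not called different at either treatment. After dexamethasone the female arrays lay above the male ones without overlap, yet the difference was 0.23 ± 0.23 (adjusted p = 0.685). After vehicle it was -0.36 ± 0.23 (adjusted p = 0.704), and the ranges overlapped.

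Zonation markers changed too. Por, known to be richer around the central vein, rose while the pericentral sum fell and the periportal sum rose. The summed level of the 8 periportal markers was 826 to 1051 after dexamethasone and 505 to 634 after vehicle in females, and 751 to 1034 after dexamethasone and 462 to 601 after vehicle in males. The 8 pericentral markers summed to 305 to 366 after dexamethasone and 421 to 475 after vehicle in females, and to 230 to 314 after dexamethasone and 342 to 626 after vehicle in males. By the test, 4 periportal markers rose and 2 fell in females and 3 rose and 1 fell in males. Of the pericentral markers, 0 rose and 4 fell in females and 1 rose and 5 fell in males. Over all probes, 11.9% were called higher and 12% lower in females, and 9.23% and 10.5% in males. Whether the zones changed, or only the expression of these marker genes, was not tested. The part of these markers in the results on the members was not tested either.

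Nr1i2, the steroid- and drug-sensing receptor PXR, rose less than Por but in both sexes alike in sign. It stood at 5.28, 5.19 and 5.49 in females after dexamethasone, against 4.48, 4.55 and 4.17 after vehicle. In males the values were 5.05, 5.23 and 5.40 after dexamethasone, against 4.31, 4.10 and 4.65 after vehicle. The groups did not overlap in either sex. The rise was 1.89-fold in females (0.92 ± 0.19, adjusted p = 0.00636) and 1.84-fold in males (0.88 ± 0.19, adjusted p = 0.00873). The difference between these effects was 0.04 ± 0.27, with a 95% interval from -0.56 to 0.64. With slide as a block the rise was 1.14 in females and 0.77 in males, and within slide 5 it was 1.32 and 0.75. With scan day as a block, chosen after seeing the data, the female call was lost (1.01, adjusted p = 0.0507). Neither sex difference was called, at 0.09 ± 0.19 after dexamethasone and 0.05 ± 0.19 after vehicle.

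Nr1i3, the receptor CAR, which shares target genes with PXR, moved the other way. On its brighter probe, A_44_P316002, females had -0.39, -0.24 and -1.09 after dexamethasone, against 0.18, 0.48 and -0.14 after vehicle. Males had 0.56, 0.49 and 0.75 after dexamethasone, against 1.77, 1.47 and 2.07 after vehicle. The treated arrays lay below the vehicle arrays in both sexes on this probe. In males Nr1i3 fell by 1.17 ± 0.26 on the log2 scale, 2.25-fold (adjusted p = 0.00943), and the second probe fell by 1.16 ± 0.28 (adjusted p = 0.0150). The second Nr1i3 probe lost this call without male vehicle 3 (-1.02, adjusted p = 0.0577). In females the difference was -0.74 ± 0.26 (adjusted p = 0.0599) on the brighter probe and -0.72 ± 0.28 (adjusted p = 0.0896) on the second, where 1 pair of arrays overlapped, so neither was called. The brighter probe was called in females in 7 of 26 other settings, among them normexp background (-0.57, adjusted p = 0.0377) and the fit without slide 5, with adjusted p from 0.0331 to 0.193. The effect in females minus that in males was 0.42 ± 0.36 (95% interval -0.38 to 1.23, adjusted p = 0.694). A smaller fall in females was therefore not shown.

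CAR was also lower in females. The brighter probe was 2.25-fold lower after dexamethasone (log2 -1.17 ± 0.26, adjusted p = 0.0455) and 3.02-fold lower after vehicle (-1.60 ± 0.26, adjusted p = 0.0103). All female arrays lay below all male arrays of the same treatment. The second probe gave -1.22 ± 0.28 after dexamethasone, which was not called (adjusted p = 0.0556), and -1.66 ± 0.28 after vehicle (adjusted p = 0.0135). The 2 probes thus differ on the call after dexamethasone, and the brighter one kept it in 10 of 26 other settings (adjusted p from 0.0160 to 0.121), with only 1 of the 12 fits that leave out an array among them. The call after vehicle held in 24 of 26 and was lost with slide as a block (-1.79, adjusted p = 0.0561) and with only the compared groups fitted (adjusted p = 0.0740). The group order was males after vehicle, males after dexamethasone, females after vehicle and females after dexamethasone, from high to low, and the ranges of neighbouring groups did not overlap on this probe. Females after vehicle and males after dexamethasone were not tested against each other. Within slide 5 the sex difference was -1.83 after dexamethasone and -2.21 after vehicle.

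**Figure D2:**
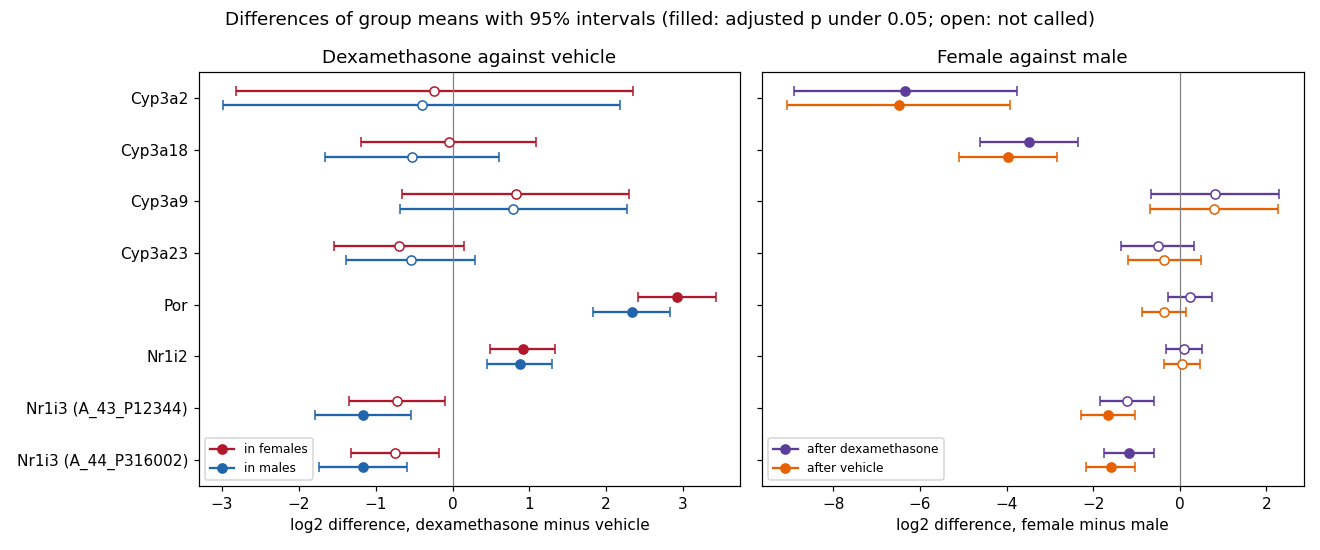
Log2 differences of group means with 95% intervals for the 8 member probes, dexamethasone minus vehicle on the left (females and males) and female minus male on the right (after dexamethasone and after vehicle), with filled points for adjusted p under 0.05. Por reaches 2.92 in females and 2.33 in males, while Cyp3a2 lies at -6.33 after dexamethasone and -6.49 after vehicle between the sexes.

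Between the sexes, 3 members were lower in females at either treatment, Cyp3a2, Cyp3a18 and Nr1i3, and 0 were higher. After dexamethasone 0.965% of all probes were called lower in females and 1.27% higher, and after vehicle 0.941% and 0.735%. The member medians were -0.51 after dexamethasone and -0.36 after vehicle, against -0.01 and 0.02 over all probes.

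Cyp3a2, the male-predominant testosterone hydroxylase of rat liver, had the widest sex difference of the members. Females had 3.52, 2.51 and -0.79 after dexamethasone, against 8.17, 8.02 and 8.04 in males. After vehicle females had 2.52, 3.96 and -0.53, against 8.13, 8.38 and 8.92 in males. No female array came within 4 log2 units of any male array. Cyp3a2 was 80.6-fold lower in females after dexamethasone (log2 -6.33 ± 1.17, adjusted p = 0.0196) and 90.0-fold lower after vehicle (-6.49 ± 1.17, adjusted p = 0.0195), and only 0.142% and 0.135% of probes differed more. The Cyp3a2 call after dexamethasone did not survive the removal of any 1 treated male array (adjusted p = 0.0646 without replicate 1, 0.0663 without replicate 2 and 0.0590 without replicate 3) or of treated female 2 (adjusted p = 0.0527). The call after vehicle likewise went with any 1 male array (adjusted p = 0.0533 without replicate 1, 0.0642 without replicate 2 and 0.0770 without replicate 3), with female 1 (adjusted p = 0.0552) and with only the compared groups fitted (adjusted p = 0.0915). The differences themselves stayed between -8.09 and -5.06 after dexamethasone and between -7.76 and -5.02 after vehicle over 26 settings.

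The female level of Cyp3a2 was not 1 level. On slide 5 the female arrays read -0.79 after dexamethasone and -0.53 after vehicle, whereas the other 4 read 2.51 to 3.96. Cyp3a18 was also lowest in females on slide 5, at 1.15 after dexamethasone and 1.83 after vehicle, against 2.59 to 3.49 on the other female arrays. On the male arrays of slide 5, Cyp3a2 was 8.04 after dexamethasone and 8.92 after vehicle, against 8.02 to 8.38 on the other male arrays. Male Cyp3a18 on slide 5 was 5.52 after dexamethasone, the lowest of its group, and 6.46 after vehicle. Cyp2c11, the most abundant male-specific P450 of rat liver, was chosen here after its values were seen. In females after dexamethasone it read -0.58 on slide 5, against -0.51 and -1.47 on the other arrays of that group. In females after vehicle it was lowest on slide 5, at -1.28 against -0.34 and -0.11. In males it lay at 7.59 or higher. Without slide 5 the Cyp3a2 sex difference was -5.08 after dexamethasone (adjusted p = 0.0130) and -5.02 after vehicle (adjusted p = 0.0151), and within slide 5 it was -8.83 and -9.45. As replicate 3 of every group lay on slide 5, slide and pool of animals cannot be told apart.

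**Figure D3:**
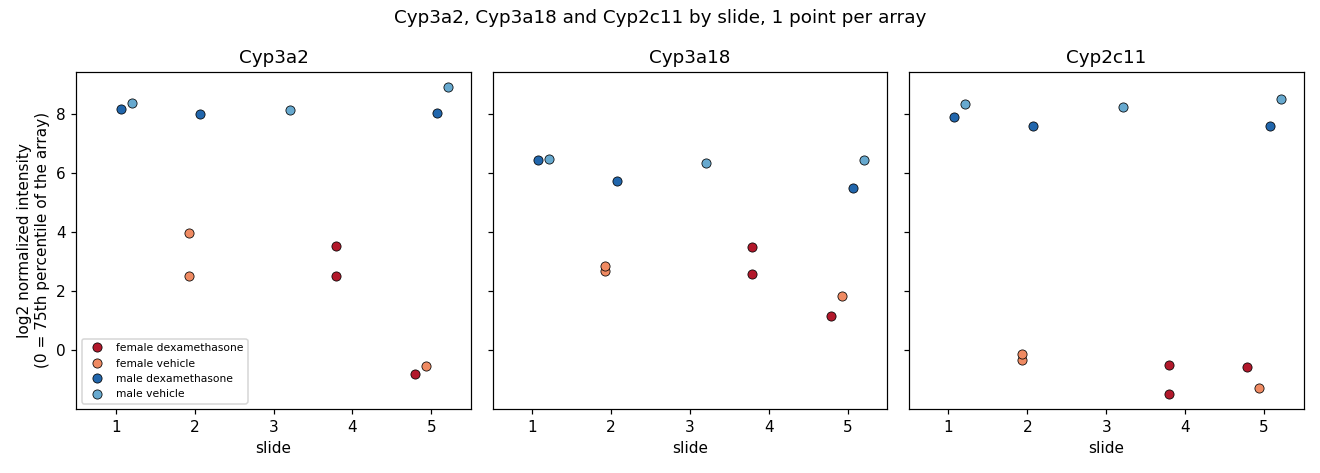
Log2 normalized intensity of Cyp3a2, Cyp3a18 and Cyp2c11 by slide, 1 point per array and 0 at the 75th percentile of the array. Female Cyp3a2 is at -0.79 and -0.53 on slide 5 and at 2.51 to 3.96 on slides 2 and 4, while male values stay at 8.02 or above.

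Cyp3a18, another male-predominant form, differed less between the sexes and with a smaller spread. Females had 3.49, 2.59 and 1.15 after dexamethasone, against 6.45, 5.72 and 5.52 in males. After vehicle the female values were 2.70, 2.86 and 1.83, against 6.35, 6.47 and 6.46 in males. The sexes did not overlap at either treatment. It was 11.2-fold lower in females after dexamethasone (-3.49 ± 0.51, adjusted p = 0.00563) and 15.6-fold lower after vehicle (-3.96 ± 0.51, adjusted p = 0.00243), and was called in all 26 other settings run at both treatments. With slide as a block the values were -4.37 and -4.03, and within slide 5 -4.37 and -4.63.

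Neither male-predominant form passed the test for dexamethasone. For Cyp3a2 the log2 difference was -0.24 ± 1.17 in females (95% interval -2.82 to 2.34, or 0.142-fold to 5.07-fold) and -0.40 ± 1.17 in males (-2.98 to 2.18, or 0.127-fold to 4.54-fold). For Cyp3a18 it was -0.05 ± 0.51 in females (-1.19 to 1.08) and -0.53 ± 0.51 in males (-1.66 to 0.61). The fit takes 1 spread for all 4 groups, while the SDs of Cyp3a2 were 2.26 after dexamethasone and 2.29 after vehicle in females and 0.08 after dexamethasone and 0.40 after vehicle in males (n = 3 each).

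Cyp3a23, the form known for induction by dexamethasone in rat liver, was not called higher in either sex 6 h after 1 mg/kg. Other doses and times were not measured here. Its values were 4.38, 4.10 and 2.90 in females after dexamethasone, against 4.59, 4.75 and 4.12 after vehicle. Males had 4.86, 3.88 and 4.17 after dexamethasone, against 4.66, 4.80 and 5.08 after vehicle. The treated means were the lower ones and the ranges overlapped. The difference was -0.70 ± 0.38 in females (95% interval -1.54 to 0.15, adjusted p = 0.211) and -0.55 ± 0.38 in males (-1.39 to 0.30, adjusted p = 0.384). The upper limits correspond to rises of 1.11-fold in females and 1.23-fold in males. It was not called in any of 26 other settings, where it ranged from -1.56 to -0.25 in females and from -0.82 to -0.34 in males. Within slide 5 it was -1.23 in females and -0.92 in males, and within slide 1 0.06 in males. No sex difference was called, at -0.51 ± 0.38 after dexamethasone and -0.36 ± 0.38 after vehicle.

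Cyp3a9, known as a female-predominant form, rested on single arrays. It read 0.18, 0.58 and 3.101 in females after dexamethasone, against 0.06, 0.30 and 1.04 after vehicle. In males it read 0.80, 0.47 and 0.16 after dexamethasone, against -0.80, -0.63 and 0.48 after vehicle. Replicate 3, on slide 5, was the highest array of 3 groups and the lowest of males after dexamethasone. The difference was 0.82 ± 0.67 in females (adjusted p = 0.401) and 0.79 ± 0.67 in males (adjusted p = 0.482). It became -0.09 in females without female dexamethasone 3. With slide as a block, where the level of females after dexamethasone depends on that array alone, it was 2.29 for Cyp3a9 (adjusted p = 0.0459). Without slide 5, an alternative chosen after seeing the data, it was 1.35 in males (adjusted p = 0.0104) and 0.20 in females (adjusted p = 0.504). Females minus males gave 0.81 ± 0.67 after dexamethasone and 0.78 ± 0.67 after vehicle, neither called.

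Cyp3a62, the remaining CYP3A gene measured here, rose in females (1.81 ± 0.30, 3.51-fold, adjusted p = 0.00195) and was not called in males (0.82 ± 0.30, adjusted p = 0.0871). The difference between these effects was 0.99 ± 0.43 (adjusted p = 0.498), and the female call was lost with slide as a block (adjusted p = 0.0822). It was lower in females after vehicle (-1.94 ± 0.30, adjusted p = 0.00839), with -0.95 ± 0.30 after dexamethasone (adjusted p = 0.163). Its probe matched that of Cyp3a18 at 43 of 68 aligned columns (63.2%), with 10 bases in a row in common.

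Genes of P450 electron donors and partners, heme synthesis and heme breakdown were also counted. Of 15 measured, 3 rose and 0 fell in females and 2 rose and 0 fell in males, against 11.9% of all probes called higher and 12% lower in females and 9.23% higher and 10.5% lower in males. The list medians were -0.10 in females and -0.30 in males, against -0.05 and 0.01 over all probes. Alas1, the rate-limiting enzyme of heme synthesis, rose by 1.40 ± 0.23 in females (adjusted p = 0.00173) and 1.08 ± 0.23 in males (adjusted p = 0.00795). Cyb5b, an outer mitochondrial membrane cytochrome b5, rose by 1.01 ± 0.25 in females and 0.85 ± 0.25 in males (adjusted p = 0.0351, called in 17 of 26 other settings and at adjusted p = 0.116 without male vehicle 1).

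Partners and upstream regulators of PXR and CAR were called in both directions. Of 28 measured, 7 rose and 3 fell in females, where 11.9% of all probes were called higher and 12% lower. In males 5 rose and 4 fell, against 9.23% and 10.5% of all probes. The medians were 0.06 in females and -0.03 in males. Gadd45b, a stress protein described in mouse liver as a CAR coactivator, rose by 3.53 ± 0.38 in females and 4.39 ± 0.38 in males. Foxa2, a hepatic pioneer factor, fell by 2.08 ± 0.35 in females and 2.67 ± 0.35 in males. Ppp2ca, the phosphatase subunit whose activity releases CAR to the nucleus, rose by 1.70 ± 0.20 in females and 1.59 ± 0.20 in males. Dnajc7, a co-chaperone that holds CAR in the cytoplasm, rose by 1.45 ± 0.14 in females and 1.06 ± 0.14 in males. Nr3c1, the glucocorticoid receptor itself, fell by 1.14 ± 0.17 in females and 1.30 ± 0.17 in males. Hsp90aa1, a receptor chaperone, rose in females (1.25 ± 0.40, adjusted p = 0.0449, called in 11 of 26 other settings).

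The receptor Egfr, whose signal keeps CAR in the cytoplasm, was called in opposite directions and is named after its values were seen. It rose in females (0.88 ± 0.25, adjusted p = 0.0264) and fell in males (-1.01 ± 0.25, adjusted p = 0.0159). The difference between these effects, 1.89 ± 0.35, was not called (adjusted p = 0.137).

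Known targets of PXR and CAR outside CYP3A were called in both directions. Of 28 measured, 5 rose and 4 fell in females and 3 rose and 8 fell in males, beside the same shares over all probes (11.9% higher and 12% lower in females, 9.23% and 10.5% in males). The medians were -0.11 in females and -0.68 in males. The count of 8 in males was 13 with slide as a block, 4 with only the compared groups fitted or without male vehicle 3, and 5 without male dexamethasone 2, male dexamethasone 3 or slide 5. The carboxylesterase Ces2c rose by 6.77 ± 0.41 in females, with 1 array missing, and by 6.23 ± 0.37 in males. The sulfotransferase Sult1a1 rose by 2.68 ± 0.18 in females and 1.44 ± 0.18 in males, and Ces2a by 1.26 ± 0.35 in females (called in 19 of 26 other settings and at adjusted p = 0.126 without slide 5). On the scale of the fit, Abcb1a, the drug efflux pump, was at least 1.53-fold lower in females and at least 1.56-fold lower in males. It was not well above background on any treated array. With normexp background the Abcb1a differences were smaller than these bounds, at -0.42 in females and -0.24 in males, neither called. Of the female vehicle arrays, only 2 had Abcb1a well above background. The steroid sulfotransferase Sult2a1 fell in males (-3.49 ± 0.56, adjusted p = 0.00162), with -0.83 ± 0.56 in females. Cyp7a1, the rate-limiting enzyme of bile acid synthesis, fell in males (-2.04 ± 0.37, adjusted p = 0.00344), with -0.20 ± 0.37 in females. Alas1 is on this list too. The dexamethasone effect was not called as different between the sexes for any gene of this list.

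Other microsomal P450 enzymes that POR serves were called in both directions. Of 39 measured, 2 rose and 6 fell in females and 3 rose and 7 fell in males, where 12% and 10.5% of all probes were called lower and 11.9% and 9.23% higher. The medians were -0.20 in females and -0.47 in males. In males the count of falls was 7 as fitted, 14 with slide as a block, 3 with only the compared groups fitted and 4 without male vehicle 3, male dexamethasone 2 or male dexamethasone 3. The list includes Cyp7a1. The sterol hydroxylase Cyp8b1 fell by 3.45 ± 0.25 in females and 2.83 ± 0.25 in males. On the scale of the fit, Cyp26b1, which clears retinoic acid, was at least 5.47-fold lower in females and at least 12.3-fold lower in males. Only such limits are given because it was not well above background on any treated array. With normexp background the Cyp26b1 differences were smaller than these bounds, at -1.02 in females and -1.50 in males, both called. Cyp7b1, an oxysterol hydroxylase, was called higher in males (adjusted p = 0.000691) and not in females (adjusted p = 0.0712). It was well above background on 3 treated arrays but only 1 vehicle array in each sex, so the size of its rise is uncertain, with log2 differences in males of 4.51 ± 0.63 as fitted and 1.48 with normexp background. Cyp2j3, a fatty acid epoxygenase, rose by 1.28 ± 0.18 in females and 0.57 ± 0.18 in males (adjusted p = 0.0497). Cyp4b1 rose by 1.13 ± 0.32 in females and 1.43 ± 0.32 in males, and the female call was lost with slide as a block (0.41). The fatty acid hydroxylase Cyp4a3 fell in females (-1.05 ± 0.26), a call also lost with slide as a block (-0.28).

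**Figure D4:**
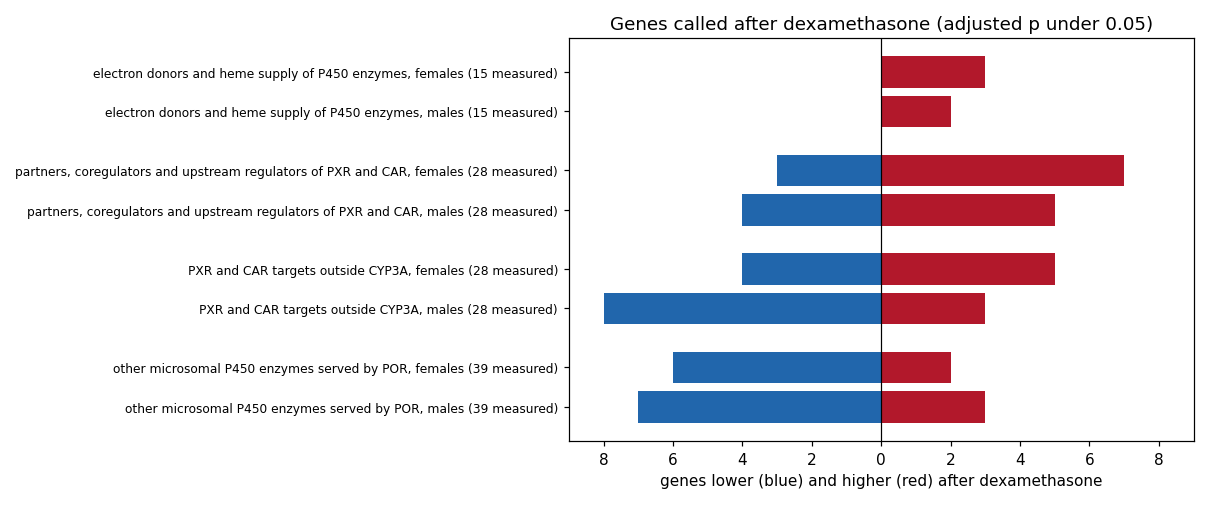
Number of genes called lower (left of 0) and higher (right of 0) after dexamethasone in 4 lists of genes around the members, in females and males, at adjusted p under 0.05. The targets of PXR and CAR had 5 higher and 4 lower in females and 3 higher and 8 lower in males.

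Over the 12 arrays the members fell into patterns that the comparisons already show, and the following correlations are descriptions over arrays that share groups and slides. Cyp3a2 and Cyp3a18 correlated at 0.979, Por and Nr1i2 at 0.95, and Nr1i3 with Cyp3a18 at 0.846. The genes with a symbol most like Por were Anxa13, an annexin (0.995), Ces2c (0.990) and the inositol transporter Slc5a11 (0.989). Nearest to Nr1i2 were Qprt, an enzyme of NAD synthesis (0.979), Hirip3 (0.9753) and Asphd2 (0.972). Nearest to Nr1i3 were Sephs1 (0.968), Gnat2 (0.967) and the monocarboxylate transporter Slc16a4 (0.959). Cyp3a2 lay nearest to Hsd11b1, the glucocorticoid-activating reductase (0.964), the sterol transporter Abcg5 (0.961) and Prtfdc1 (0.956). Cyp3a18 lay nearest to Hsd11b1 (0.9736), Cyp2c11 (0.960) and Ust5r (0.960). The closest genes to Cyp3a23 were Trip10 (0.878), Cav2 (0.869) and Rad1 (0.868), and to Cyp3a9 Nmnat2 (0.891), Itga1 (0.874) and Mef2d (0.873). Of these 21 pairings, 4 genes (Slc5a11, Asphd2, Ust5r and Gnat2) were not well above background in at least 1 group.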

How the data were processed

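Liver RNA was read on 12 single-colour Agilent rat arrays. Spot intensities were deposited as Feature Extraction 9.1.3.1 output, per the file headers. The authors also deposited a table of log10 intensities, whose scaling is not given in the sources used here, and it served as an alternative only. Each array's processed signals were log2-transformed and centred on their 75th percentile. Flagged outlier spots were dropped. A probe was kept when at least 3 arrays showed it well above background and each group had 2 usable arrays (28173 probes). Of 41012 probes, 21680 kept the file's own name and the rest took RefSeq symbols (GRCr8). RefSeq also gave the promoters. The array files name no genome build.

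The 4 group means were fitted in limma 3.58.1 (R 4.3.3, statmod 1.5.0; 8 residual and 2.43 prior degrees of freedom). P-values were Benjamini-Hochberg adjusted over all kept probes of a comparison, with calls at 0.05. The fit was tested on simulated data. The brightest kept probe stands for a gene. Levels are not compared between probes, and the number of arrays limits precision. Where all arrays of a group left a probe in background, only a least fold is given, set by the dimmest detected signal. This limit holds on the scale of the processed signals, and another background method can give a smaller fold. From each list up to 5 called genes per dexamethasone comparison with the largest difference were named, plus the 3 genes most correlated with each member. Of the other CYP3A genes listed, Cyp3a13 is an older symbol of Cyp3a9 and was counted there, and Cyp3a73 was not measured here. The members and lists were chosen with earlier results of these data known. Alternatives covered background, scaling, filters, slide, replicate number, the groups fitted and each array left out. The normexp background alternative also added a constant to each signal before the log, which makes differences of dim probes smaller. Scan day as a block and the fit without slide 5 were added after seeing the data. The fit as reported did not pair arrays by replicate number, although number 3 lay on slide 5 in every group and its arrays resembled each other. Figures were drawn with matplotlib 3.10.9. One listed gene is counted with its list but its values are not reported here.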

Additional observations from a re-analysis of the deposited data

How the results depend on the processing

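The Por calls in both sexes, the Nr1i2 call in males, the Nr1i3 call in males (brighter probe) and both Cyp3a18 sex differences held in all 26 other settings run. The number of members called between the sexes fell to 1, Cyp3a18, after vehicle with only the compared groups fitted, and after dexamethasone ranged from 1 to 3 when 1 array was left out, with 1 without male dexamethasone 1, 2 or 3 or female dexamethasone 2. The numbers of probes called depended more on the settings. For the difference between the dexamethasone effects, 7 probes became 31 with normexp background, 0 with no filter on dim probes, 4 with probes above background on all arrays, 12 with slide as a random block, 13 with scan day as a block, 0 without slide 5, and 0 to 4 with 1 array left out. For dexamethasone in females, 6738 became 3592 with slide as a fixed block and 8966 with the replicate block. The female count was 4248 to 6848 with 1 array left out. For dexamethasone in males, 5552 became 8971 with slide as a random block and 3783 with only the compared groups fitted. The male count was 4187 to 5942 with 1 array left out. For the sex difference after dexamethasone, 630 became 1083 with slide as a random block, 984 with the replicate block, and 333 to 718 with 1 array left out. For that after vehicle, 472 became 271 with slide as a fixed block, 746 as a random block, 182 with only the compared groups fitted, 792 with scan day as a block, 288 without slide 5, and 293 to 465 with 1 array left out. The cause was not tested, beyond fewer arrays in the fits that leave some out.

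Over all settings, 44 values of member differences had the opposite sign, with the same difference counted anew in each setting. None of these differences was called in the fit as reported. Values within slide 5 are not in this count. For the dexamethasone effect in females minus that in males, slide as a fixed block gave -0.35 for Cyp3a18 and -0.33 for Cyp3a2, scan day gave -0.28 for Cyp3a18, -1.17 for Cyp3a2, and -0.061 and -0.15 for the Nr1i3 probes, and the fit without slide 5 gave -0.067 for Cyp3a2, -1.15 for Cyp3a9 and -0.23 for Nr1i2. Quantile normalization gave -0.043, the deposited table -0.062 and the percentile over detected probes -0.018 for Cyp3a9, and the last gave -0.008 for Nr1i2. For dexamethasone in females, Cyp3a18 was 0.007 with normexp background and 0.26 without slide 5. Between the sexes, Cyp3a9 after dexamethasone was -0.25 without slide 5, and Nr1i2 after vehicle was -0.21 and -0.092 with slide as a fixed and a random block. With 1 array left out, the difference between the dexamethasone effects ranged from -0.062 to 1.11 for Cyp3a18, -1.10 to 1.43 for Cyp3a2, -0.45 to 0.30 for Cyp3a23, -0.88 to 0.58 for Cyp3a9 and -0.11 to 0.17 for Nr1i2. The dexamethasone difference in females ranged from -0.59 to 0.58 for Cyp3a18, -1.50 to 1.03 for Cyp3a2 and -0.085 to 1.38 for Cyp3a9. The sex difference ranged from -0.094 to 1.37 for Cyp3a9 after dexamethasone and from -0.074 to 0.20 for Nr1i2 after vehicle.

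Same-numbered arrays correlated at 0.005 to 0.358 for number 1, 0.007 to 0.351 for number 2 and 0.210 to 0.595 for number 3, which shares slide 5, and 7 of 12 arrays lay closest to their own number. With the replicate block the Nr1i3 sex difference after dexamethasone had adjusted p = 0.0573. Every member spot was well above background, and background handling still changed member calls: with normexp the brighter Nr1i3 probe was called in females (adjusted p = 0.0377) and the other between the sexes after dexamethasone (adjusted p = 0.0186).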
